A study of Mus musculus with 6 samples.

Results

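The end-joining repair genes are 9 genes of the deposited table, taken by symbol from a named list: Xrcc5, Xrcc6, Xrcc4, Lig4, Nhej1, Dclre1c, Poll, Polm and Polq. This list and the related lists below were chosen with earlier results of these data known. All 9 are among the 22219 genes of the table, and all 9 passed the filter on low values that left 17570 genes to test. The series asked what loss of Eif5 in male germ cells does to spermatogenesis. RNA came from whole mouse testes on day 10. There were 3 control libraries and 3 libraries labelled cKO, a conditional knockout of Eif5, the gene of a translation initiation factor, made by crossing Eif5fl/fl mice (floxed alleles) to mice that carry Stra8-Cre, a recombinase driven by a promoter active in early male germ cells. Somatic cells of the testis keep Eif5 in this design, and the labels state neither the genotype of the controls nor whether each library came from its own animal. The p-values therefore measure only the spread between these libraries, which may be technical, and an effect of the Cre itself cannot be told apart from that of the loss of Eif5.

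End joining repairs a DNA double-strand break by ligating its 2 ends, without a template chromatid. In the classical pathway a ring of Ku70 and Ku80 slides onto each end and holds the DNA-dependent kinase, Artemis trims ends that cannot be joined, small polymerases fill gaps, and a ligase complex seals the break. A separate route led by DNA polymerase theta anneals short matching stretches on resected ends and is prone to small deletions. In the testis, spermatogonia divide by mitosis and can use end joining, whereas the programmed breaks of meiosis are mostly repaired by recombination with the homologous chromosome.

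Of the 9 genes, 2 were lower in cKO and 0 were higher at an adjusted p under 0.05 (limma on log2(value + 2), Benjamini-Hochberg over all 17570 genes). Polq fell most, by 42.1%, and Xrcc6, the gene of Ku70, fell by 23.0%. Xrcc5, the gene of its obligate partner Ku80, did not fall with it, and the other 6 genes did not pass the test. Among all genes tested 10.4% were called lower and 9.63% higher, and with 9 genes a count of 2 is too small to set the list apart from that background. The median log2 fold change was -0.27 over the 9 genes and 0.01 over all genes tested. By unadjusted separation, the 3 cKO values lay all below the 3 control values for 3 genes (Polq, Xrcc6 and Lig4) and all above them for 1 (Xrcc5), against 18.4% and 18.3% of all genes tested.

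**Figure D1:**
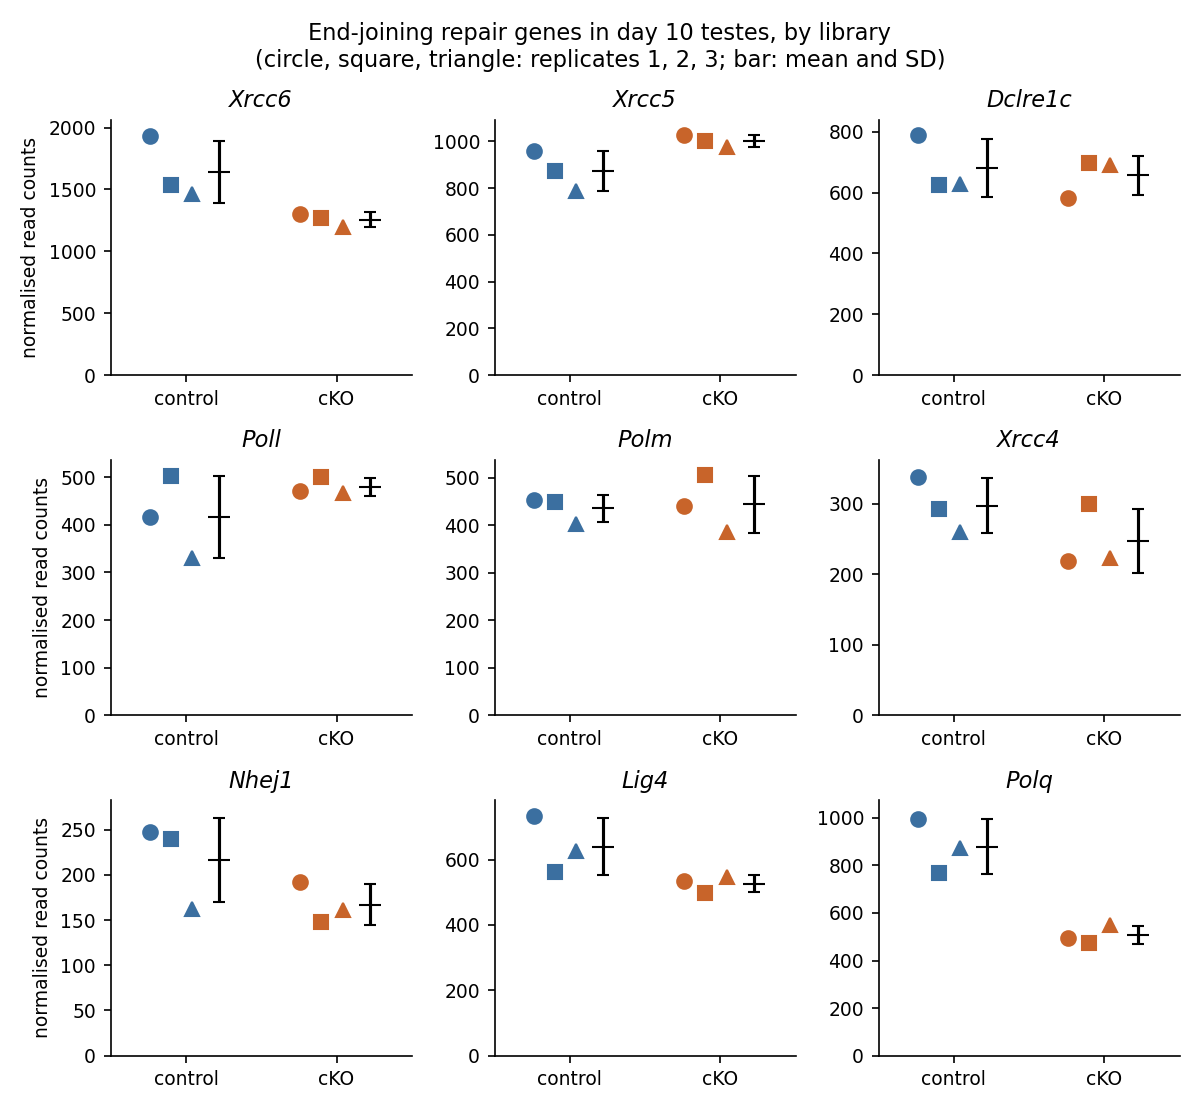
Normalised read counts (y axis, linear from 0) of the 9 end-joining repair genes in each of the 3 control and 3 cKO libraries, with the mean and SD of each group. The cKO points of Polq (474.6 to 550.1) lie far below its control points (768.6 to 996.2), those of Xrcc6 lie below theirs by less, and those of Xrcc5 lie just above theirs.

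Libraries held 32555443 to 48409550 recovered reads and 20841 to 21582 detected genes. Eif5, looked at as a check of the labels, read 11964, 10551 and 11187 normalised read counts in the control libraries. In cKO it read 8548, 8982 and 9574, so the groups did not overlap (log2 fold change -0.31, limma adjusted p = 0.0240). Of all genes tested, 10.4% were called lower and 18.4% had all cKO values below the control values. The sum of general germ cell markers given below fell further, by a log2 difference of -0.60. The fall of Eif5 therefore cannot by itself check the labels. Markers of several cell types differed between the groups too. The summed values of 7 germ cell markers, here called general, ranged from 28495 to 35050 in control and from 19899 to 21055 in cKO. Of the 7, 5 were called lower, and the groups overlapped for Dppa3 and Pou5f1. Dazl (10485 to 15462 in control, 6628.5 to 7829 in cKO) and Mael (8692 to 8949, 6586 to 7084) made up most of this sum. Scalings to the germ cell markers therefore rest mostly on these 2 genes. The sum of 12 meiotic prophase markers, all 12 called lower, ranged from 32000 to 36015 and from 13037 to 15520. The sum of 8 markers of differentiating spermatogonia ranged from 24522 to 24764 and from 11663 to 13582, with 7 called lower. The sum of 10 markers of undifferentiated spermatogonia ranged from 13143 to 15164 and from 13751 to 15015, with 3 of the 10 called higher. The sum of 15 Sertoli cell markers ranged from 305805 to 427068 in control and from 466750 to 522993 in cKO, with 7 called higher and 1 lower. Clu alone made up most of this sum, at 157598 to 257035 in control and 256200 to 306001 in cKO, with overlapping groups. Scalings to the Sertoli cell markers therefore rest mostly on Clu. The sum of 8 Leydig cell markers ranged from 19713 to 24516 and from 29895 to 33844, with 7 called higher. The sum of 8 macrophage markers ranged from 6226 to 7933 and from 8165 to 9348, with 6 called higher. Of the markers in these 7 lists, 0 were at 0 in all libraries. Sums of peritubular myoid markers (27040 to 28660 in control, 24850 to 26318 in cKO) and lymphocyte markers (260 to 406, 117 to 161) were lower in cKO. Most of the lymphocyte fall lay in Cd3e. The erythroid sum ranged from 3343 to 4210 in control and from 4337 to 10999 in cKO, highest in cKO replicate 1. Sums of stromal fibroblast and endothelial markers overlapped between the groups. In whole testes, fewer cells of a type and less RNA per cell cannot be told apart, and the part of cell makeup in the results below was not tested beyond the rescalings given.

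Polq encodes DNA polymerase theta, a helicase and polymerase in 1 protein that drives end joining at short matching stretches. It read 996.2, 768.6 and 872.2 normalised read counts in control replicates 1 to 3 and 495.1, 474.6 and 550.1 in cKO replicates 1 to 3. Every cKO library lay below every control library, and the difference between the group means was larger than the range within either group. The control mean was 879.0 ± 114.0 and the cKO mean 506.6 ± 39.0 (SD, n = 3 each), a log2 fold change of -0.79 (SE 0.125, 95% interval -1.05 to -0.53, limma adjusted p = 0.000171). This lies next to the 5th percentile of all genes tested, -0.80. The values rested on 440 to 1347 recovered reads per library. The call held when each library was left out in turn, with log2 fold changes from -0.88 to -0.69 and adjusted p-values up to 0.00120. Rescaling to markers of a cell type shifts all genes by about the same amount. Scaled to the sum of the 7 general germ cell markers, Polq had a log2 fold change of -0.19 and was no longer called (limma adjusted p = 0.216), while the median of all genes moved to 0.59. Scaled to the Sertoli cell markers, it was -1.18, with the median of all genes at -0.38.

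The 300 bases around the RefSeq start of Polq are shown because this member changed most (GRCm38.p6, chr16:37011536-37011835, plus strand, 250 bases before the start and 50 after it). Capitals mark matches on either strand to the letters of 3 elements found at many cell cycle genes: the CCAAT box (CCAAT), the CHR (TTTGAA) and the E2F core (spelled TTCCCGC, or else TTGGCGC, or else TTGCCGC, or else TTCGCGC). Positions are counted from the first transcribed base as 1, give the first base of a match, and are negative before the start.
Polq: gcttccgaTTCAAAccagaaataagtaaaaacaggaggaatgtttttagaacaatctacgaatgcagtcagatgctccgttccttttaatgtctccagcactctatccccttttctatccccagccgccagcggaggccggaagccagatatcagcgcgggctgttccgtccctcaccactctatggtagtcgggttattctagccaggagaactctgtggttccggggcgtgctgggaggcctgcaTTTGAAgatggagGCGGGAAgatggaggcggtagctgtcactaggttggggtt

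The Polq window held 2 matches to the CHR letters, at -242 and -3, and 1 match to the E2F letters at 11, read there as GCGGGAA. It held 0 matches to CCAAT. Among 32851 RefSeq promoter windows of the same length, 17.9% held the CHR letters, 9.57% the E2F letters and 37.4% a CCAAT. The motifs were chosen with the expression values known. A match is a description of the letters and shows neither binding nor a cause.

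The genes whose profile over the 6 libraries was most like that of Polq were Zfp39, Ska3 and Rnf17. Likeness was the root mean square difference of log2 values centred on the control mean, over 12954 other genes with a mean of at least 100 normalised read counts. It was 0.0329 for the zinc finger gene Zfp39, 0.0654 for Ska3, which encodes a kinetochore protein, and 0.0683 for Rnf17, a Tudor domain gene of male germ cells. Zfp39 read 884.6, 708.8 and 761.0 in control libraries against 443.3, 435.3 and 477.4 in cKO. Its values lay below those of Polq in every library, as likeness compares profiles and not levels. These are 6 libraries in 2 groups, and likeness is given as a description.

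Xrcc6 and Xrcc5 encode Ku70 and Ku80, the partner subunits of the ring that first binds a broken end. Xrcc6 read 1929, 1538 and 1461 normalised read counts in the control libraries against 1305, 1271 and 1193 in cKO. All cKO libraries lay below all controls, and control replicate 1 stood highest. The log2 fold change was -0.38 (SE 0.110, 95% interval -0.61 to -0.15, limma adjusted p = 0.0204). The call of Xrcc6 ended without control replicate 1 (adjusted p = 0.0922), without cKO replicate 2 (0.0521) and without cKO replicate 3 (0.0830), with log2 fold changes from -0.46 to -0.26 over the 6 omissions. Scaled to the germ cell markers its direction turned (0.22, limma adjusted p = 0.0993). An opposite-strand neighbour, Desi1, shares 344 bases of exon with Xrcc6 in GENCODE M21, 7.69% of its exonic length, and without a stated strand setting reads there cannot be assigned to either gene. Desi1 itself averaged 2567 ± 64.4 in control libraries against 2673 ± 217 in cKO libraries (SD, n = 3 each) and was not called.

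Xrcc5 read 960.0, 873.1 and 786.1 normalised read counts in the control libraries against 1028, 999.9 and 974.2 in cKO. Here all cKO libraries lay above all controls, by a small margin. The log2 fold change was 0.20 (SE 0.110, 95% interval -0.03 to 0.43) and did not pass the test (limma adjusted p = 0.208), and scaled to the Sertoli cell markers it was -0.19. The ratio of Xrcc6 to Xrcc5 within a library does not depend on any scaling. It was 2.01, 1.76 and 1.86 in the control libraries against 1.27, 1.27 and 1.23 in cKO, so the groups were separate and the 3 cKO ratios nearly equal. The log2 difference of the ratio was -0.58, with an exact permutation p = 0.1, 2-sided, the smallest that 3 against 3 allows. This ratio and 5 others were chosen after the values were seen, and adjusted over the 6 its p was 0.15 (Benjamini-Hochberg, exact permutation test).

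The promoter windows of the Ku pair are shown side by side, with the same capitals. They were picked because Xrcc6 was called lower and Xrcc5 was not called (GRCm38.p6, chr15:82016119-82016418, plus strand, for Xrcc6 and chr1:72307171-72307470, plus strand, for Xrcc5).
Xrcc6: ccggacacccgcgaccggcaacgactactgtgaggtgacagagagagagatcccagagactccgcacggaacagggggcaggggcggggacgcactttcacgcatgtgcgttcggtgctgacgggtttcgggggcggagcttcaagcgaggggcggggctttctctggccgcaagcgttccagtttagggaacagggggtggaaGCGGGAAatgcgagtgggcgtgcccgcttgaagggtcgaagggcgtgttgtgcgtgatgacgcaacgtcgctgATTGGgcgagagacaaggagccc
Xrcc5: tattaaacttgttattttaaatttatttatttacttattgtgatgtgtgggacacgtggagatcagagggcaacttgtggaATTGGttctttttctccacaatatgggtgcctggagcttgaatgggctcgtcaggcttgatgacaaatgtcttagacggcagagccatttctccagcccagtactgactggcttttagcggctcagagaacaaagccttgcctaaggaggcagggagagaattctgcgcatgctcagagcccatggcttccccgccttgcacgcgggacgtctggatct

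The Xrcc6 window held 1 match to the E2F letters, at -46, and 1 CCAAT on the minus strand at 28. The Xrcc5 window held 0 E2F matches and 1 CCAAT on the minus strand, at -169. Xrcc6 also held 3 GC boxes (GGGCGG) against 0 in Xrcc5, where 35.7% of all windows held at least 1. G and C made up 64.3% of the Xrcc6 window and 48.0% of the Xrcc5 window, against a median of 52.7% over all windows. E2F letters were not limited to the called members: the windows of Xrcc4 and Lig4 held them too. Neither of these was called, though both had a log2 fold change of -0.27. Any link between these letters and the fold changes was not tested. A promoter window was matched for 8 of the 9 members, all but Poll.

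**Figure D2:**
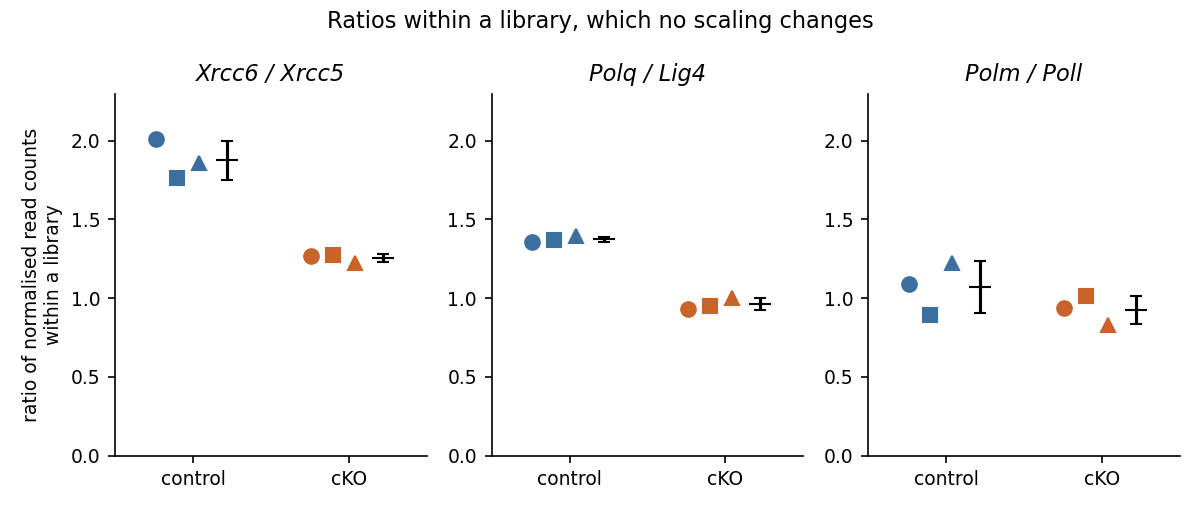
Ratios of normalised read counts of 2 genes within the same library (y axis, linear from 0), for the Ku pair, for Polq over Lig4 and for Polm over Poll, with the mean and SD of each group. The cKO points lie below all control points for Xrcc6 over Xrcc5 and for Polq over Lig4, and overlap them for Polm over Poll.

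Lig4 encodes DNA ligase IV, which seals the break in the classical pathway. It read 732.9, 561.8 and 625.8 normalised read counts in the control libraries against 533.3, 497.9 and 547.7 in cKO. The cKO libraries lay below all controls, but the lowest control was only just above the highest cKO library. The log2 fold change was -0.27 (SE 0.127, 95% interval -0.54 to -0.01) and did not pass the test (limma adjusted p = 0.136). The ratio of Polq to Lig4, which sets the error-prone route beside the classical ligase, was 1.36, 1.37 and 1.39 in the control libraries against 0.928, 0.953 and 1.004 in cKO. That ratio was thus close to constant within each group, with a log2 difference of -0.51 (exact permutation p = 0.1, 2-sided, or 0.15 adjusted over the 6 ratios).

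Xrcc4 encodes the scaffold of ligase IV, and Nhej1 encodes XLF, a related protein that forms filaments with it. Xrcc4 read 338.0, 292.9 and 260.6 in the control libraries against 218.3, 299.6 and 222.9 in cKO. Its groups overlapped through cKO replicate 2, and the log2 fold change of -0.27 did not pass the test (SE 0.168, limma adjusted p = 0.274). Nhej1, the member with the fewest reads (133 to 334 per library), read 247.0, 239.5 and 162.5 in the control libraries against 192.4, 147.8 and 161.2 in cKO. Control replicate 3 lay among the cKO values, and the log2 fold change of -0.35 had a 95% interval from -0.76 to 0.05 (limma adjusted p = 0.214). That interval holds both 0 and the log2 fold change of Xrcc6. Tmem167, on the opposite strand, shares 112 bases of exon with Xrcc4, 2.66% of its exonic length.

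Dclre1c encodes Artemis, the nuclease that opens hairpins and trims ends. It read 789.9, 624.9 and 626.9 in the control libraries against 584.0, 696.3 and 691.9 in cKO, with overlapping groups, although control replicate 1 was the highest of the 6 libraries and cKO replicate 1 the lowest. The log2 fold change was -0.05 (95% interval -0.31 to 0.22, limma adjusted p = 0.843). Its exons share 357 bases with the opposite-strand gene Suv39h2, 3.83% of their length. Suv39h2, a histone methyltransferase gene of the germ line, averaged 1514 ± 124 in control libraries against 1115 ± 40.5 in cKO libraries (SD, n = 3 each) and was lower (log2 fold change -0.44, limma adjusted p = 0.00486).

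Poll and Polm encode polymerases lambda and mu, the gap-filling enzymes of classical end joining. Poll read 415.7, 501.9 and 330.4 in the control libraries against 471.5, 500.3 and 466.5 in cKO. The cKO values fell within the control range, and the log2 fold change of 0.22 did not pass the test (95% interval -0.08 to 0.53, limma adjusted p = 0.308). Polm read 454.1, 448.6 and 403.4 in the control libraries against 441.1, 506.0 and 386.5 in cKO. Its control values lay within the cKO range, with a log2 fold change of 0.02 (95% interval -0.26 to 0.31, limma adjusted p = 0.929). The ratio of Polm to Poll ranged from 0.894 to 1.22 in control and from 0.829 to 1.01 in cKO, and its groups overlapped as well (exact permutation p = 0.3, 2-sided).

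**Figure D3:**
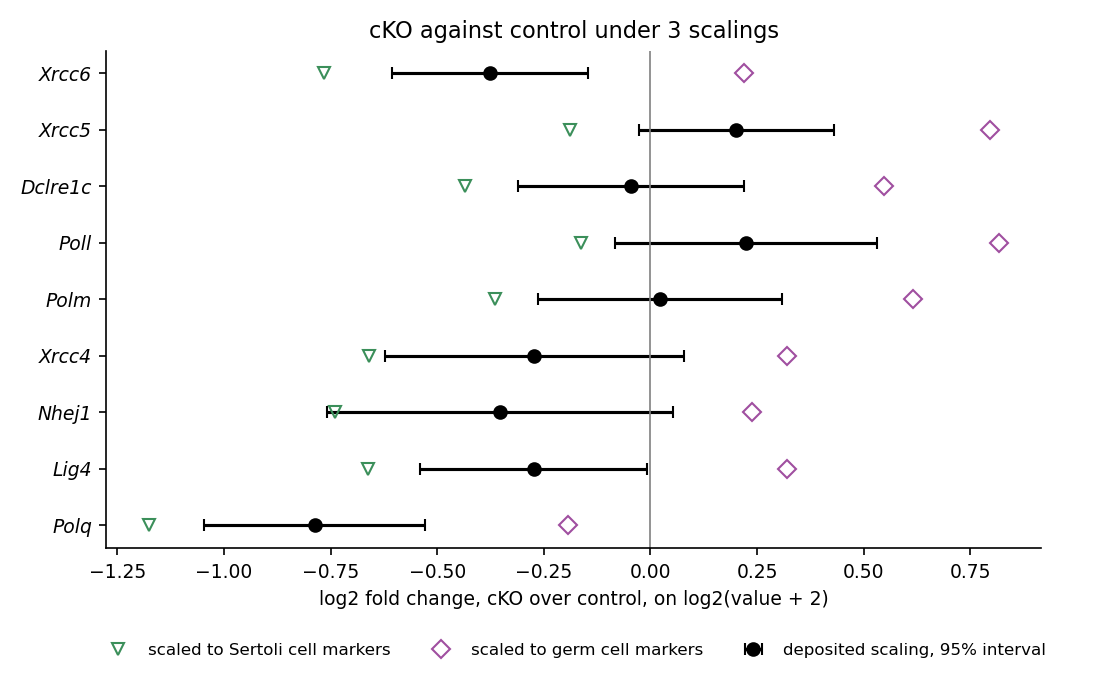
Log2 fold changes of the 9 genes, cKO over control on log2(value + 2) (x axis), with the deposited scaling and its 95% interval, and with the values rescaled to the summed Sertoli cell or germ cell markers. Each rescaling shifts the 9 genes by about the same amount, and the values of Polq are -0.79, -1.18 and -0.19.

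The 3 scalings moved all 9 genes together. Under the Sertoli cell scaling 5 of the 9 were called lower, beside 4218 of all 17570 genes. Under the germ cell scaling 0 were called lower and 5 higher, beside 250 and 11233 of all genes, while the median over all genes tested went from 0.01 to -0.38 and to 0.59 (log2). These shifts leave each gene's place relative to the median nearly as it was by construction.

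Per kb of the longest GENCODE M21 transcript, the Ku genes had the highest levels of the pathway. Xrcc6 stood at 498 ± 76.1 normalised read counts per kb and Xrcc5 at 342 ± 34.0 in control (SD, n = 3), above Prkdc, the gene of the DNA-dependent kinase subunit, at 273 ± 30.4. Nhej1 (205 ± 44.5), Poll (179 ± 36.9), Polm (149 ± 9.51), Lig4 (127 ± 17.2), Polq (102 ± 13.2), Dclre1c (96.2 ± 13.4) and Xrcc4 (86.8 ± 11.4) followed as levels per kb. From Nhej1 downwards each gene's control values overlapped those of the next, so that this part of the order is not resolved by the spread. In cKO the Ku genes were level at 392 ± 10.6 for Xrcc5 and 381 ± 17.4 for Xrcc6, with overlapping values, and Polq was the lowest of the 10 at 58.7 ± 4.52. Its highest cKO value, 63.8, came level with the lowest of Xrcc4, the next above it.

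**Figure D4:**
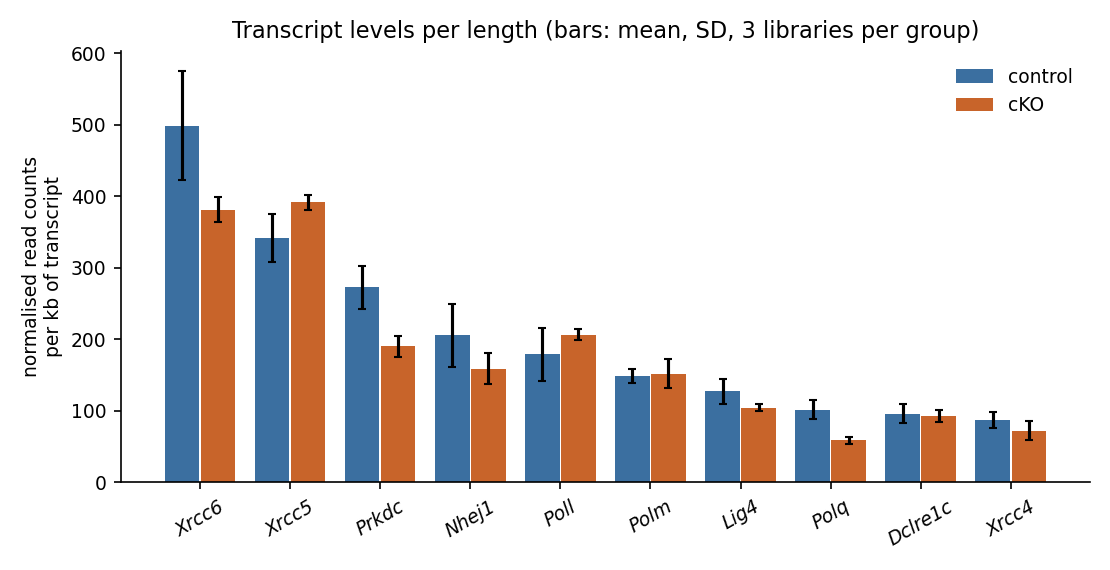
Mean normalised read counts per kb of the longest transcript (y axis, linear from 0) for the 9 genes and Prkdc in control and cKO, with the SD over 3 libraries per group. Xrcc6 and Xrcc5 stand highest in both groups, and Polq goes from 102 in control to 58.7 in cKO, the lowest bar.

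Among other factors of classical end joining, 2 of 6 tested genes passed as lower and 0 as higher, and the median log2 fold change was 0.00. For this list and those below, the shares over all genes tested were 10.4% lower and 9.63% higher. Prkdc, whose product Ku recruits to the break, read 3458, 3059 and 3829 normalised read counts in the control libraries against 2297, 2308 and 2624 in cKO. Its groups did not overlap, and it was lower (log2 fold change -0.51, SE 0.100, limma adjusted p = 0.00126). Aplf, a scaffold that binds Ku, was lower as well (-0.40, limma adjusted p = 0.0440), though its groups overlapped. Aplf lost its call when control replicate 1 (limma adjusted p = 0.142), control replicate 2 (0.143), cKO replicate 1 (0.205) or cKO replicate 3 (0.0719) was left out. Aptx, which cleans damaged end groups, the helicase gene Wrn and the inhibitor gene Cyren, listed as 3110062M04Rik, had log2 fold changes from 0.04 to 0.17 and were not called. Within a library the ratio of Prkdc to Xrcc5 was 3.60, 3.50 and 4.87 in control libraries against 2.23, 2.31 and 2.69 in cKO, again without overlap (exact permutation p = 0.1, 2-sided, or 0.15 adjusted over the 6 ratios).

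In the list of alternative end joining and single-strand ligation, 5 of 11 genes were lower and 0 higher (median log2 fold change -0.30). They were Lig1, the replicative ligase (-0.81, limma adjusted p = 6.76e-05), Cip2a, listed as C330027C09Rik (-0.77), and its partner Topbp1 (-0.57), which together tether broken chromosomes in mitosis, Lig3, a ligase of the alternative route (-0.36), and Rhno1, which recruits polymerase theta in mitosis (-0.30). Lig3 read 1380, 1351 and 1306 in the control libraries against 1001, 1123 and 1034 in cKO, so that all 3 DNA ligase genes had cKO values below all of their control values, with Lig4 alone not called. Such a separation held for 18.4% of all genes tested. Parp1, the break sensor that opens this route, had a log2 fold change of -0.15 (limma adjusted p = 0.245) and Xrcc1, the partner of Lig3, one of -0.11 (limma adjusted p = 0.533). The call of Lig3 ended without cKO replicate 1 or 3 (limma adjusted p = 0.0859 and 0.0632). Rhno1 lost its call when control replicate 2 (limma adjusted p = 0.0927), control replicate 3 (0.0547) or cKO replicate 1 (0.102), 2 (0.0989) or 3 (0.126) was left out.

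The 53BP1 and shieldin list, whose products shield ends from resection and so favour end joining, had 1 of 12 genes lower and 1 higher (median -0.06). Trp53bp1 itself was lower (-0.35, limma adjusted p = 0.00925), and Ctc1, a subunit of the polymerase alpha cofactor that fills in resected ends, was higher (0.27, limma adjusted p = 0.0452). The call of Ctc1 ended in each of the 6 fits that left out a library (limma adjusted p from 0.0540 to 0.189), and that of Trp53bp1 without cKO replicate 3 (limma adjusted p = 0.0518). Rif1 and the shieldin genes Shld1 and Shld2, listed as 1110034G24Rik and Fam35a, were not called.

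End resection commits a break to recombination or to the polymerase theta route. In this list 8 of 9 genes passed as lower and 0 as higher, the median log2 fold change was -0.48, and the cKO values of all 9 lay below the control values. Among all genes tested 10.4% were called lower and 18.4% had all cKO values below the control values. Brca1 (-0.74), the exonuclease gene Exo1 (-0.63), the helicase gene Blm (-0.53), Dna2 (-0.51), Bard1, the partner of Brca1 (-0.48), and Rbbp8, the gene of CtIP (-0.45), had the largest log2 fold changes. Calls ended for Dna2 without control replicate 1 or cKO replicate 3 (limma adjusted p = 0.0930 and 0.120), for Bard1 without control replicate 1 (0.0684) and for Rbbp8 without cKO replicate 1 (0.0546). Mre11a, which encodes a nuclease that begins resection (-0.34), lost its call without control replicate 1 (limma adjusted p = 0.0552) or 2 (0.0591) or cKO replicate 1 (0.0796), 2 (0.0528) or 3 (0.0735), and is named here for that after its values were seen. In homologous strand exchange 4 of 10 genes were lower and 0 higher (median -0.40), among them Brca2 (-0.80) and Rad54l (-0.57). Among relatives of the polymerases 2 of 8 were lower and 0 higher (median -0.15). These were Poln, a polymerase gene of the same family as Polq, and Helq, which encodes a helicase related to that of polymerase theta. Poln read 235.9, 161.1 and 142.8 in the control libraries against 72.0, 57.8 and 83.6 in cKO (log2 fold change -1.30, SE 0.236, limma adjusted p = 0.000652), and Helq had a log2 fold change of -0.51, whose call ended without cKO replicate 2 (limma adjusted p = 0.0865). Polb, the base excision relative of Poll and Polm, was not called (-0.13, limma adjusted p = 0.471).

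**Figure D5:**
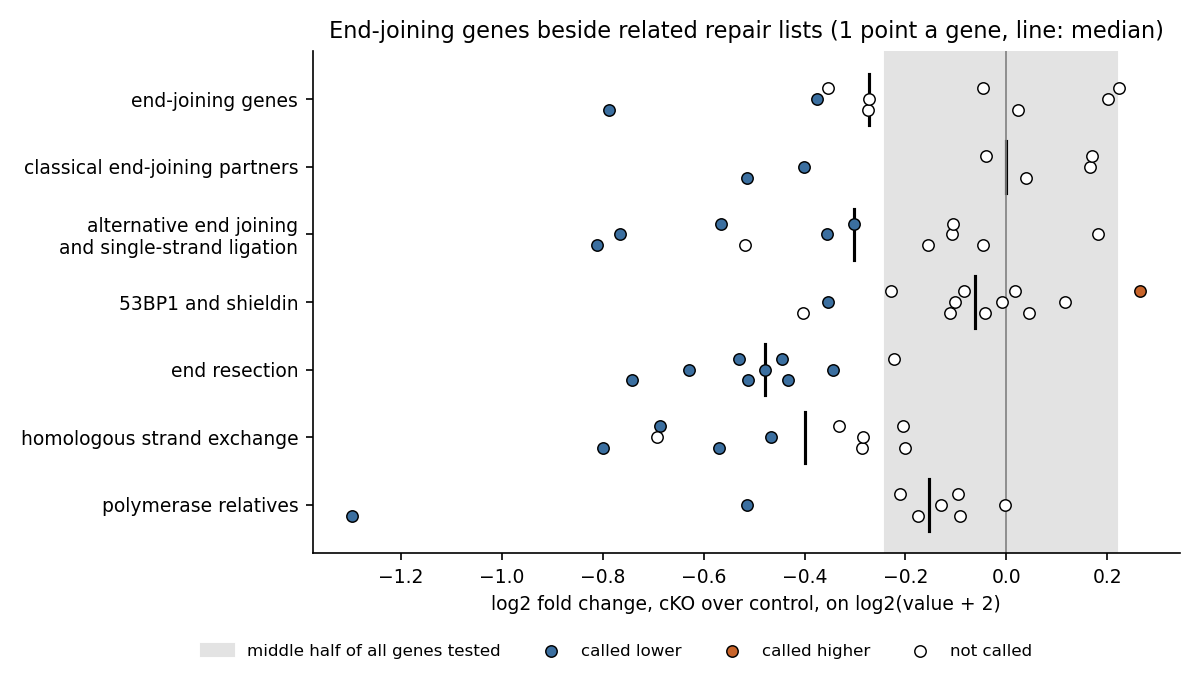
Log2 fold changes, cKO over control on log2(value + 2) (x axis), of each tested gene in the end-joining list and 6 related lists, filled where called at an adjusted p under 0.05, with the median of each list and the middle range of all genes tested in grey. The end resection list has 8 of 9 genes called lower, the end-joining list 2 of 9, and 1 gene of all these lists is called higher.

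Scaled to the sum of the 7 general germ cell markers, 1 gene of the 6 lists was called lower, Poln, in place of 22, and 27 of 56 were called higher in place of 1, beside 11233 of all 17570 genes called higher. Against Ddx4, a gene of most male germ cells, the ratio of Polq within a library was 0.212, 0.227 and 0.261 in the control libraries and stood lower, at 0.182, 0.164 and 0.201, in cKO (exact permutation p = 0.1, 2-sided, or 0.15 adjusted over the 6 ratios). The ratio of Xrcc6 to Ddx4 ranged from 0.410 to 0.455 in control and from 0.436 to 0.480 in cKO, with overlapping groups (exact permutation p = 0.5, 2-sided). The difference between the end-joining genes and the resection genes was not tested.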

How the data were processed

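Whole-testis RNA of 6 libraries was analysed, 3 control and 3 cKO, grouped by the sample titles. StringTie 1.3.1 and RSEM are named, without roles, in the submitters' processing notes. For the aligner, the build and the strand setting, the sources used here give nothing. The deposited values are named as counts but form a scaled signal: in every column 100% were whole multiples of 1 step (tolerance 1e-06), and each step's inverse (0.825 to 1.35) equalled the recomputed median-of-ratios size factor. Values are called normalised read counts. Of recovered counts from 1 to 20, 78.1% were even, and no counting interval is given from them.

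limma 3.58.1 (R 4.3.3, intensity-dependent prior, 2-sided) was fitted to log2(value + 2), which understates changes of low genes, after edgeR's filterByExpr (minimum count 10). P-values were adjusted over all 17570 genes. edgeR 4.0.16 (quasi-likelihood) and DESeq2 1.42.0 were run on the recovered reads as alternatives, beside other scalings, pseudocounts, no filter, a block and left-out libraries. The fit was tested on simulated data. Promoter sequences are RefSeq's (GRCm38.p6), and exon lengths and overlaps are from GENCODE M21, whose build may differ from that of the table. List genes were matched by symbol or RefSeq synonym, 160 of 164. All 9 members are named, and in each related list every called gene, or the 6 with the largest change. Some genes of the related lists are not reported here by name, and the counts and medians of their lists include them. The members and lists were chosen with earlier results of these data known.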

Additional observations from a re-analysis of the deposited data

How the results depend on the processing

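The 2 falls were called with every pseudocount, with no filter, with library totals, TMM factors, edgeR and DESeq2. Rescaling to cell markers moved most counts. With Sertoli cell markers 5 members were lower, 34 genes of the related lists lower and 0 higher, and 4218 of all genes lower and 26 higher, against 2, 22, 1, 1829 and 1692. With germ cell markers 0 members were lower and 5 higher, 1 list gene lower and 27 higher, 250 of all genes lower and 11233 higher, and 7 members had separate groups, against 4. The share of all genes with separate groups was not counted under that scaling, so the 7 cannot be set against a background. Library totals gave 806 higher genes, so that 75.6% of calls were lower, against 51.9%. The 1 list gene called higher was lost (0) with library totals, no filter and the replicate block. Direction turned with germ cell markers for Xrcc6 (0.22), Xrcc4 (0.32), Lig4 (0.32), Nhej1 (0.24) and Dclre1c (0.55), with Sertoli markers for Xrcc5 (-0.19), Poll (-0.16) and Polm (-0.36), and with library totals for Polm (-0.062), as log2 fold changes. These turns follow from the construction of the scaling. Leaving out 1 library at a time gave 1 to 2 members lower, 0 list genes higher and 918 to 1747 of all genes higher, with Dclre1c from -0.103 to 0.066 and Polm from -0.074 to 0.119. The cause of the lost calls was not tested, and each of these fits also had fewer libraries. With the replicate number as a block, 2 members stayed lower, with 1771 of all genes lower and 1535 higher. Same-numbered libraries did not deviate together (r of -0.04, 0.00 and 0.06 across genes), and differently numbered ones gave r from -0.07 to 0.07. With 3 libraries per group this cannot settle whether same-numbered libraries share more than a number. Reads per member and library, 133 to 2608, limit the precision of Nhej1 and Xrcc4 most.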
